A study of Arabidopsis thaliana with 8 samples.

Results

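Mitotic cyclins, B-type cyclin-dependent kinases (CDKs) and the cytokinesis syntaxin KNOLLE were followed across 4 groups of Arabidopsis thaliana root arrays. The 9 genes were CYCB1;1 (AT4G37490), CYCB1;2 (AT5G06150), CYCB1;3 (AT3G11520), CYCB2;1 (AT2G17620), CYCA1;1 (AT1G44110), CDKB1;1 (AT3G54180), CDKB2;1 (AT1G76540), CDKB2;2 (AT1G20930) and KNOLLE (AT1G08560). They were chosen with earlier results of these data known, so their counts beside all probe sets are descriptive only. Probe sets were found by locus code, and a gene counted as measured where a probe set was annotated to that locus alone. This held for 7 of the 9, among 21019 genes measured alone on the array. CYCB1;2 and CDKB1;1 had only a probe set annotated to a second locus as well, and their probe sets are described apart from the 7.

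The plants were wild type (WT) or the mutant called uri in the labels, which name no allele. URI encodes a basic helix-loop-helix transcription factor of the iron-deficiency response. All plants grew for 14 days on diluted Gamborg's B5 medium and then spent 3 days on basal agar medium, either with 50 µM Fe(III)-EDTA (+Fe) or with 300 µM of the iron chelator ferrozine (−Fe). Whole-root RNA was hybridised to 8 Affymetrix arrays, with 2 biological replicates for each of WT +Fe, WT −Fe, uri +Fe and uri −Fe. The design asks how the mutation alters the root response to iron shortage.

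A-type and B-type cyclins accumulate as a cell leaves G2 and enters mitosis, where they activate CDKs, and they are destroyed by the anaphase-promoting complex as the cell exits. Plants have a CDK class of their own, the B-type CDKs, and transcripts of its B2 type are found mainly in this window. KNOLLE then acts in the fusion of vesicles that builds the new cell wall between daughter nuclei, and in a root these transcripts mark the scattered dividing cells of the tip. A whole-root measurement cannot tell fewer dividing cells apart from less RNA per dividing cell, and this holds for every value given here.

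Linear intensities were deposited, and the array medians ranged from 119.09 to 128.06. Values are given on the log2 scale, replicate 1 first and replicate 2 second. Replicate arrays correlated with r from 0.9938 to 0.9978 over all probe sets. Differences carry the moderated standard error (SE) of a limma fit to all 8 arrays, with n = 2 per group. A difference was called at an adjusted p under 0.05, after Benjamini-Hochberg adjustment over 22746 probe sets. The −Fe arrays carry title numbers 2184 to 2187 and the +Fe arrays 2276 to 2279. Iron supply and number block therefore cannot be told apart, while each comparison of genotypes lies within 1 block.

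URI itself was at 8.73 and 8.78 on the WT +Fe arrays and at 7.84 and 7.64 on the uri +Fe arrays, a difference of −1.02 ± 0.118 (limma adjusted p = 0.000752). It was at 8.64 and 8.60 on the WT −Fe arrays and at 8.52 and 8.62 on the arrays labelled uri −Fe, a difference of −0.05 (adjusted p = 0.804). The URI level thus separated the genotypes with iron and not without it. Each direction below that involves uri −Fe rests on that label. All 10 root markers were measured, and their summed linear intensity lay between 16557 and 19265 on every array. Of the 6 root meristem markers 5 were measured, with group means from 4.65 for BBM to 6.87 for PLT3, against lower quartiles of 4.65 to 4.80 over all probe sets.

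Of the mitotic transcripts, all but CDKB2;1 were called lower with iron deficiency in uri, and none was called in WT. Iron supply and number block coincide here, so a fall or rise with iron deficiency names the contrast and not its cause. In uri, 6 of the 7 genes fell, by 1.25-fold for CDKB2;2 to 2.25-fold for CYCB1;1, where 18.0% of all probe sets fell. The median difference over the 7 genes was −0.67, against −0.01 over all probe sets. In WT, 0 of the 7 were called by limma, where 5.65% of all probe sets were called. At an unadjusted p under 0.05, 1 of the 7 was past the threshold in WT, against 18.1% of all probe sets. The WT median was −0.03, as it was over all probe sets. The interaction, which is the iron response of uri minus that of WT, was called lower for 5 of the 7 genes and for 10.8% of all probe sets. It was called for 3 when any 1 of the 4 WT arrays, or the second array of uri −Fe or of uri +Fe, was left out. For all 7 genes both uri −Fe arrays lay below both uri +Fe arrays, as did 32.2% of all probe sets.

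**Figure D1:**
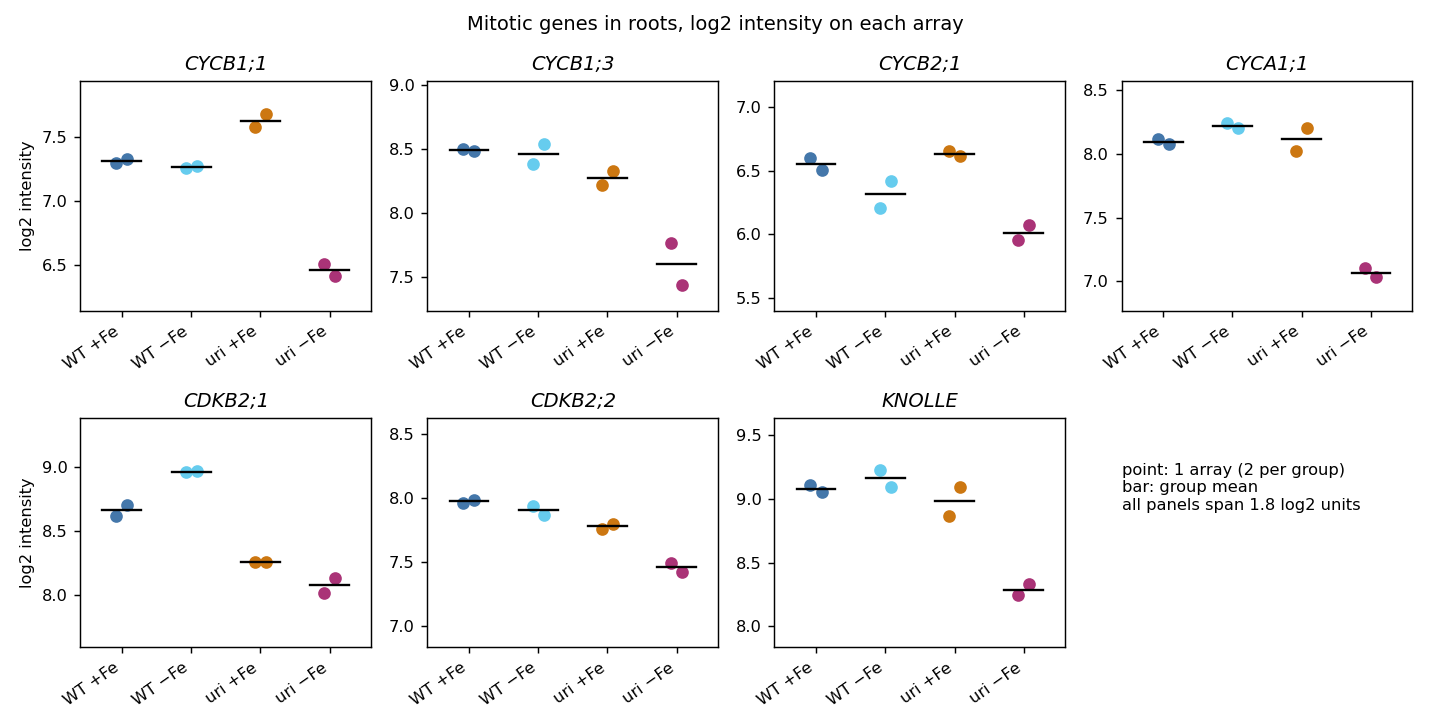
Log2 intensity (vertical axis) of the 7 mitotic genes on each of the 8 arrays, by group (horizontal axis). Points are arrays, 2 per group, horizontal bars are group means, and all panels span the same range of log2 units. The uri −Fe points lie below those of the other 3 groups in every panel. CDKB2;1, CDKB2;2 and CYCB1;3 are also lower on the uri +Fe arrays than on both WT groups.

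The B-type cyclins bind CDKs to drive entry into mitosis. CYCB1;1, widely used as a reporter of cells in G2 and mitosis, was at 7.30 and 7.33 in WT +Fe, 7.25 and 7.28 in WT −Fe, 7.58 and 7.68 in uri +Fe, and 6.50 and 6.41 in uri −Fe. The uri −Fe arrays were the lowest and the uri +Fe arrays the highest, with no overlap between groups. The gene fell 2.25-fold with iron deficiency in uri (log2 −1.17 ± 0.112, limma adjusted p = 9.5e-06). Of all probe sets, 1.27% had a lower value in that comparison. Its WT response of −0.05 had a 95% interval of −0.29 to 0.20 (adjusted p = 0.883). The responses differed by −1.12 ± 0.158 (adjusted p = 0.000354).

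CYCB1;3, a cyclin of the same subgroup, was at 8.50 and 8.49 in WT +Fe, 8.38 and 8.54 in WT −Fe, 8.22 and 8.33 in uri +Fe, and 7.77 and 7.44 in uri −Fe. Its uri −Fe arrays stood apart from each other by more than the replicates of any other group, and still below all 6 other arrays. It fell 1.59-fold in uri (log2 −0.67 ± 0.133, limma adjusted p = 0.00186), while WT gave −0.03 with an interval from −0.32 to 0.26. The interaction was −0.64 ± 0.188 (adjusted p = 0.0301). That call ended without any 1 of the 4 WT arrays and without the second array of uri −Fe or of uri +Fe, with adjusted p up to 0.136 and values from −0.80 to −0.48 over the arrays left out.

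CYCB2;1, of the second B-type subgroup, was at 6.60 and 6.50 in WT +Fe, 6.21 and 6.42 in WT −Fe, 6.65 and 6.62 in uri +Fe, and 5.95 and 6.08 in uri −Fe. Its −Fe arrays were below the +Fe arrays in both genotypes, with no overlap. In uri it fell 1.53-fold (log2 −0.62 ± 0.121, limma adjusted p = 0.00175). WT gave −0.24 (interval −0.50 to 0.03, adjusted p = 0.336). The interaction was −0.38 (interval −0.75 to −0.01, adjusted p = 0.147), so a difference between the genotypes' responses was not shown for this gene.

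CYCA1;1, an A-type cyclin of the G2 to mitosis window, was at 8.11 and 8.08 in WT +Fe, 8.24 and 8.20 in WT −Fe, 8.02 and 8.20 in uri +Fe, and 7.10 and 7.04 in uri −Fe. The other 3 groups lay close together, with uri +Fe overlapping both WT groups, and uri −Fe lay apart below them. The transcript fell 2.06-fold with iron deficiency in uri (log2 −1.04 ± 0.115, limma adjusted p = 2.79e-05), and 1.98% of all probe sets had a lower value. WT gave 0.12 (interval −0.13 to 0.38, adjusted p = 0.653). Its interaction of −1.17 ± 0.163 was the lowest of the 7 (adjusted p = 0.000323).

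The B2-type CDKs are plant kinases active around mitosis. CDKB2;1 was at 8.62 and 8.71 in WT +Fe, 8.96 and 8.97 in WT −Fe, 8.26 and 8.26 in uri +Fe, and 8.02 and 8.13 in uri −Fe. The 4 groups did not overlap, and both uri groups lay below both WT groups. Its iron response was 0.30 in WT (interval 0.06 to 0.54, limma adjusted p = 0.166) and −0.18 in uri (interval −0.43 to 0.06, adjusted p = 0.246). Neither passed the threshold, and CDKB2;1 is the WT gene past the unadjusted threshold counted above. The interaction was −0.48 ± 0.158 (adjusted p = 0.0485), close to the threshold. This interaction missed the threshold with arrays centred on their median (−0.43, limma adjusted p = 0.0856) and with the replicate number as a block (adjusted p = 0.0616). It did not pass when any 1 of the 8 arrays was left out, with values from −0.54 to −0.43 and adjusted p up to 0.155.

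CDKB2;2 was at 7.96 and 7.99 in WT +Fe, 7.94 and 7.87 in WT −Fe, 7.76 and 7.80 in uri +Fe, and 7.49 and 7.42 in uri −Fe. Both uri groups lay below both WT groups, uri −Fe lowest, with no overlap. It fell 1.25-fold in uri (log2 −0.32 ± 0.111, limma adjusted p = 0.0411). That call ended with arrays centred on their median (−0.25, adjusted p = 0.109) and without any 1 of the 6 arrays of WT −Fe, uri −Fe or uri +Fe, with values from −0.36 to −0.28 and adjusted p up to 0.184. WT gave −0.07 (interval −0.31 to 0.17), and the interaction was −0.25 (interval −0.59 to 0.09, adjusted p = 0.318).

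KNOLLE, the cell-plate syntaxin, was at 9.11 and 9.05 in WT +Fe, 9.23 and 9.09 in WT −Fe, 8.87 and 9.09 in uri +Fe, and 8.24 and 8.33 in uri −Fe. The uri −Fe arrays lay below the other 6, among which WT +Fe overlapped both WT −Fe and uri +Fe. It fell 1.62-fold with iron deficiency in uri (log2 −0.69 ± 0.122, limma adjusted p = 0.000874). The WT response was 0.08 (interval −0.18 to 0.35, adjusted p = 0.802). The interaction was −0.77 ± 0.173 (adjusted p = 0.0074).

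Without iron, uri roots held less of 6 of the 7 transcripts than WT roots, where 14.4% of all probe sets were lower. The median difference of the 7 was −0.86, against 0.02 over all probe sets. This comparison shares the uri −Fe arrays with the iron response of uri, so the 2 sets of values are not independent. CYCA1;1 was 2.22-fold lower (log2 −1.15 ± 0.115, limma adjusted p = 1.45e-05), and CDKB2;1 was 1.85-fold lower (−0.89 ± 0.112, adjusted p = 8.67e-05). KNOLLE was 1.83-fold lower (−0.87 ± 0.122, adjusted p = 0.000192). The B1-type cyclins were lower as well. CYCB1;3 differed by −0.86 ± 0.133 (adjusted p = 0.000403) and CYCB1;1 by −0.81 ± 0.112 (adjusted p = 0.000179).

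CDKB2;2 was 1.36-fold lower in uri without iron (log2 −0.44 ± 0.111, limma adjusted p = 0.00947). This call ended when WT −Fe replicate 1 was left out (−0.41, adjusted p = 0.0975), when WT −Fe replicate 2 was (−0.48, adjusted p = 0.0517), and when uri −Fe replicate 2 was (−0.41, adjusted p = 0.0728). CYCB2;1 was the gene not called, at −0.30 (interval −0.56 to −0.04, adjusted p = 0.0911). For all 7 genes both uri −Fe arrays lay below both WT −Fe arrays, as did 32.2% of all probe sets.

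With iron, 0 of the 7 differed between the genotypes by limma, where 3.12% of all probe sets did. At an unadjusted p under 0.05, 2 of the 7 were past the threshold, against 16.0% of all probe sets. These were CYCB1;1, at 0.32 towards a higher level in uri (interval 0.07 to 0.56, adjusted p = 0.175), and CDKB2;1, at −0.41 (interval −0.65 to −0.16, adjusted p = 0.0782). CDKB2;1 was called when the moderation followed an intensity trend (adjusted p = 0.0339). The other 5 had differences from −0.22 for CYCB1;3 to 0.08 for CYCB2;1, and their intervals all included 0. The bound farthest from 0 among those intervals was −0.51, for CYCB1;3.

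**Figure D2:**
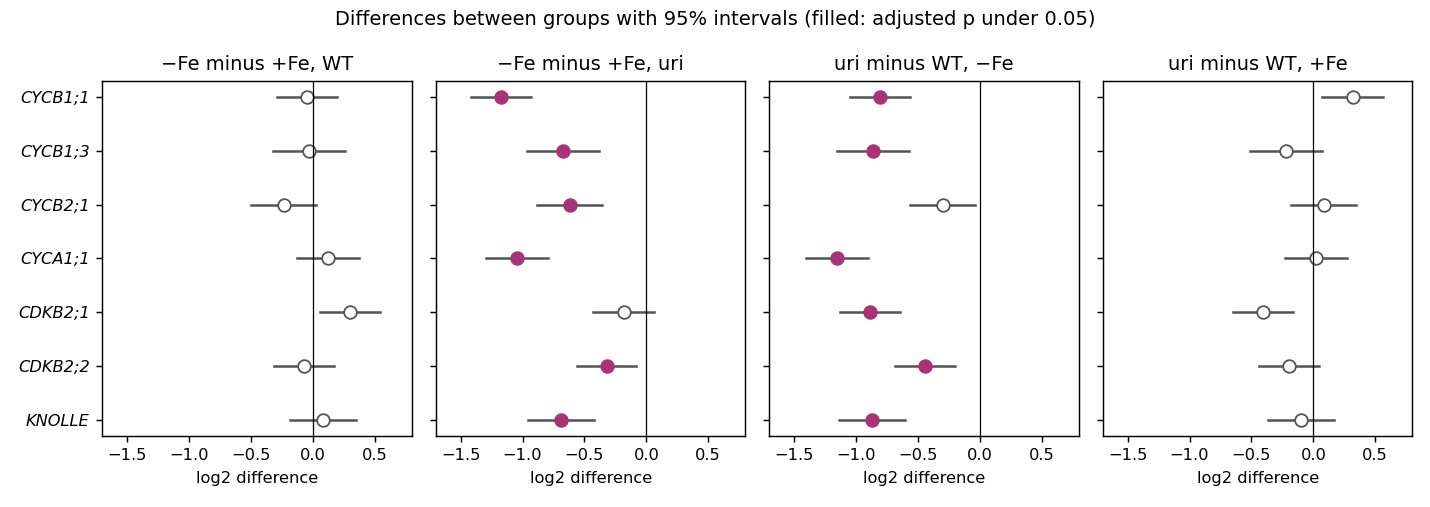
Differences in log2 intensity (horizontal axis) for the 7 mitotic genes in 4 comparisons, with 95% intervals from the limma fit. Filled points are called at an adjusted p under 0.05: 6 in the iron response of uri, 6 in uri against WT without iron, and 0 in each of the outer panels.

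The probe sets with a second locus gave the following values. The one annotated to CDKB1;1 and CDKB1;2, paralogous B1-type CDKs that promote division over endoreduplication, was at 7.29 and 7.12 in WT +Fe, 7.12 and 7.19 in WT −Fe, 7.28 and 7.25 in uri +Fe, and 6.49 and 6.34 in uri −Fe. Its uri −Fe arrays lay below all others. It fell in uri by 0.85 on the log2 scale (SE 0.119, limma adjusted p = 0.000165), was lower in uri than in WT without iron by −0.74 (adjusted p = 0.000514), and had an interaction of −0.81 (adjusted p = 0.00476). The share of either gene in these values is not known.

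The probe set annotated to CYCB1;2 and AT1G34460 was dim, with group means from 4.61 in uri +Fe to 5.23 in WT −Fe, near the lower quartile of all probe sets. It was at 4.93 and 4.30 on the uri +Fe arrays, which therefore spanned the uri −Fe arrays at 4.51 and 4.80. It was lower in uri than in WT without iron (−0.58 ± 0.178, limma adjusted p = 0.0302) and was not called in the other 4 contrasts. At this level the probe set gives little information on CYCB1;2.

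The remaining cell-cycle machinery was read from 7 lists written from textbook knowledge, with 76 genes measured alone. The lists were chosen with earlier results of these data known, so their counts beside the background are descriptive only. In uri, 39 of the 76 were lower and 3 higher with iron deficiency, where 18.0% of all probe sets fell and 15.1% rose. Without iron, 38 were lower and 1 higher in uri than in WT, where 14.4% of all probe sets were lower and 12.2% higher. In WT, 2 of the 76 were called, and with iron 2 differed between the genotypes, with 0 to 4 and 0 to 5 over the arrays left out. Over all probe sets 5.65% and 3.12% were called in these comparisons, so neither count is above the background. The interaction was called for 30, lower for 28 and higher for 2, where 10.8% of all probe sets were called lower and 9.60% higher. It was called for as few as 16 when uri −Fe replicate 2 was left out. It was called for 17 without WT −Fe replicate 2 and for 19 without WT −Fe replicate 1.

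**Figure D3:**
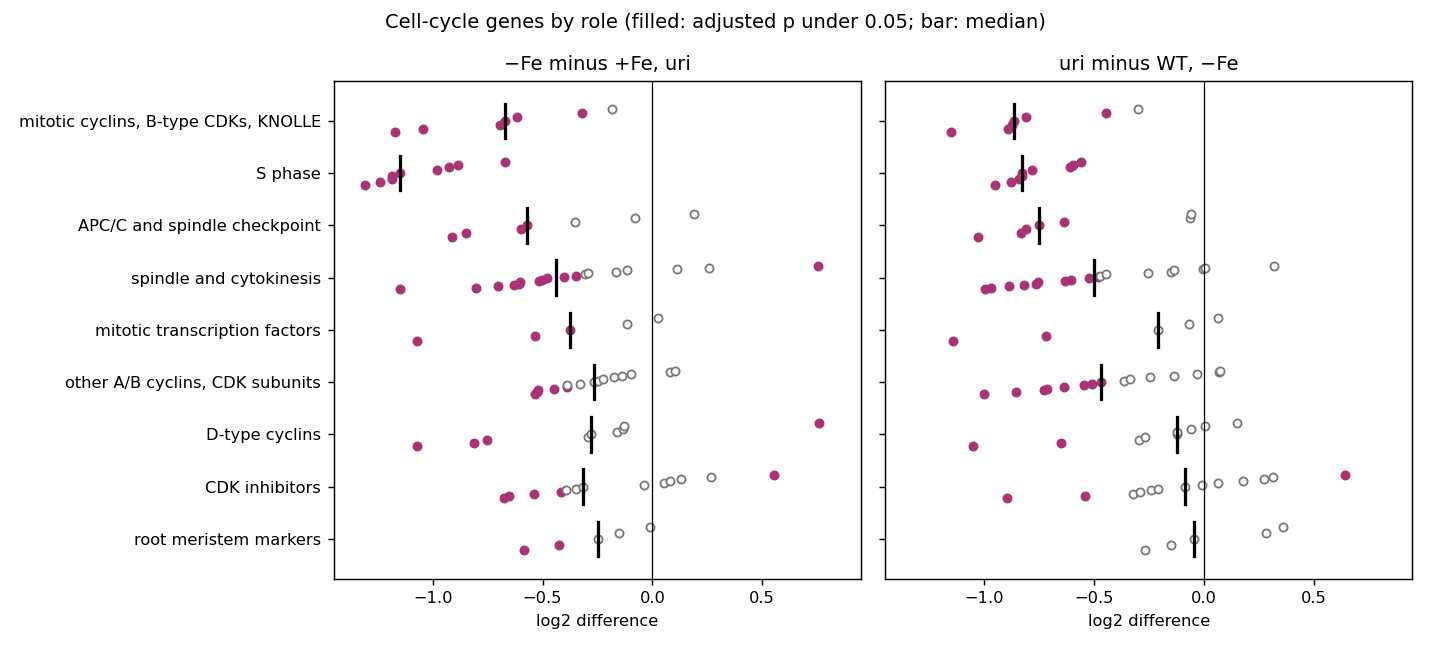
Log2 differences (horizontal axis) of single genes by role (rows) in the iron response of uri (left) and in uri against WT without iron (right). Filled points are called at an adjusted p under 0.05 and black bars are list medians. The 9 S phase genes are all called lower in both panels, while D-type cyclins and CDK inhibitors lie on both sides of 0.

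Among the other A-type and B-type cyclins and CDK subunits, 5 of 15 fell in uri with iron deficiency and 8 of 15 were lower in uri than in WT without iron. Their medians were −0.27 and −0.47. Of all probe sets, 18.0% and 14.4% were called lower in the same comparisons. CYCB1;4, a paralogue of CYCB1;1, was at −0.45 and −0.998 in these comparisons, and CYCB2;4 at −0.53 and −0.85, all called by limma. CYCB2;2 was lower without iron (−0.71) and had an iron response of −0.22 in uri that was not called (adjusted p = 0.247). CKS2, a small subunit that docks on CDKs, was lower without iron (−0.73). CDKA;1, the CDK present throughout the cell cycle, differed by 0.10 and 0.07 and was not called (adjusted p = 0.563 and 0.706). CYCA1;2, the paralogue of CYCA1;1, was dim and not called in either, at −0.25 and −0.36. The count of 5 became 1 when uri −Fe replicate 2 was left out, 2 when uri −Fe replicate 1 was, and 3 when uri +Fe replicate 2 was. The count of 8 was 5 without either WT −Fe array and 4 without uri −Fe replicate 1. Leaving out uri −Fe replicate 2 ended the iron-response calls of CYCB1;4 and CYCB2;4. The second uri +Fe array did so for CYCB1;4 and the first for CYCB2;4.

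Transcription factors that regulate mitotic genes, activators and repressors together, were measured for 5 loci. Of these, 3 fell in uri with iron deficiency, where 18.0% of all probe sets fell. Without iron 2 were lower in uri, where 14.4% of all probe sets were lower. SCL28, a GRAS-family activator of G2 and mitosis genes, fell 2.10-fold (log2 −1.07 ± 0.161, limma adjusted p = 0.00028) and was lower without iron by −1.14. MYB3R4, an activator of the same genes, was at −0.53 and −0.72. Without uri −Fe replicate 2 the count of 3 was 1, and MYB3R4 was not called in the iron response.

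Of 7 measured genes of the anaphase-promoting complex activators and the spindle checkpoint, 4 fell in uri with iron deficiency, where 18.0% of all probe sets fell. Without iron 5 were lower in uri, where 14.4% of all probe sets were lower. The checkpoint genes BUB3.1 and BUBR1 fell, with log2 differences of −0.91 and −0.85. MAD2, the checkpoint protein that holds the complex inactive, was lower without iron by −1.03. CCS52A1 and CCS52B, activators of the complex, were lower without iron by −0.75 and −0.83. The CCS52A1 call in the iron response (−0.60) ended without uri −Fe replicate 2.

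Of 18 spindle, phragmoplast and cytokinesis genes, 11 fell and 1 rose in uri with iron deficiency, against 18.0% and 15.1% of all probe sets. Without iron 10 were lower in uri, where 14.4% of all probe sets were lower. HINKEL, a kinesin needed for expansion of the cell plate that KNOLLE builds, fell 2.22-fold (log2 −1.15 ± 0.140, limma adjusted p = 5.92e-05). MAP65-3, which bundles microtubules at the division plane, was at −0.70 and −0.89, and POK1, a kinesin of the division site, at −0.80 and −0.76. The spindle kinesins ATK5 and RSW7 were lower without iron by −0.996 and −0.97. SNAP33, a t-SNARE that pairs with KNOLLE and with other syntaxins, rose 1.68-fold in uri (0.75 ± 0.124, adjusted p = 0.000553). KEULE, a regulator that binds KNOLLE, had differences of 0.26 and 0.01 and was not called.

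S phase genes were measured for 9 loci of the MCM helicase, PCNA and ribonucleotide reductase. All 9 fell in uri with iron deficiency, with a median of −1.15, where 18.0% of all probe sets fell. All 9 were lower in uri without iron, with a median of −0.83, where 14.4% of all probe sets were lower. With iron the S phase median was 0.30 towards uri. There 0 of the 9 were called by limma, against 3.12% of all probe sets. At an unadjusted p under 0.05, 4 of the 9 passed, against 16.0% of all probe sets. The S phase median in the iron response of WT was −0.02.

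For the regulators of entry into the cycle, counts are set beside the shares of all probe sets. Of 9 D-type cyclins, 3 fell and 1 rose in uri with iron deficiency, against 18.0% and 15.1% of all probe sets. CYCD3;1, which promotes division, fell 2.10-fold (log2 −1.07 ± 0.140, limma adjusted p = 9.87e-05) and was lower without iron by −1.05. CYCD1;1 rose in uri (0.76 ± 0.132). Without iron 2 of the 9 were lower in uri than in WT, and 1 when WT −Fe replicate 2 or uri −Fe replicate 1 was left out. Of 13 CDK inhibitors, 4 fell and 1 rose in uri, and 3 were called when uri −Fe replicate 1 was left out. Without iron 2 of the 13 CDK inhibitors were lower and 1 higher, against 14.4% and 12.2% of all probe sets. The counts of CDK inhibitors without iron are thus near or below the background. KRP2 was lower (−0.68 and −0.90 in the 2 comparisons) and KRP4 higher (0.55 and 0.64).

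Markers of green tissue and of root hairs and elongation moved on the same arrays. Of all probe sets, 15.1% rose and 18.0% fell with iron deficiency in uri. Without iron 12.2% were higher in uri than in WT, and 5.65% were called in either direction in the iron response of WT. Of 21 photosynthesis genes, used as markers of green tissue, 11 rose in uri with iron deficiency and 20 were higher in uri than in WT without iron, while 16 fell with iron deficiency in WT, or 10 without WT −Fe replicate 2. Their summed linear intensity was 7890 to 8669 in WT +Fe, 5023 to 5066 in WT −Fe, 6827 to 7215 in uri +Fe and 10457 to 11319 in uri −Fe, and none of the 21 was listed at 0. Of 6 root hair and elongation markers, 5 fell in uri with iron deficiency, with sums of 3500 to 3715 in uri −Fe and 4476 to 6317 in the other groups. Without uri −Fe replicate 1 that count was 3. The part of these shifts in the mitotic values was not tested.

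Of the 5 root meristem markers, 2 fell in uri with iron deficiency, where 18.0% of all probe sets fell. Without iron 0 differed between the genotypes by limma, where 14.4% of all probe sets were lower and 12.2% higher in uri. At an unadjusted p under 0.05, 3 of the 5 were past the threshold there, 2 higher and 1 lower in uri, against 36.5% of all probe sets, and 1 was called with quantile normalization or without uri −Fe replicate 1. PLT1, a stem-cell niche factor, fell with iron deficiency in uri by 0.58 on the log2 scale (adjusted p = 0.00241). ACR4, a receptor kinase of the root tip, fell by 0.42 (adjusted p = 0.0352), a call that ended with either other scaling of the arrays and without the second array of uri −Fe or of uri +Fe. PLT2 gave 0.36 in uri against WT without iron (adjusted p = 0.0943). Summed meristem intensity was 276 to 278 in WT +Fe, 235 to 245 in WT −Fe, 303 to 304 in uri +Fe and 252 to 273 in uri −Fe. In the iron response of WT 0 of the 5 were called by limma, against 5.65% of all probe sets. There 1 of the 5 was past an unadjusted p under 0.05, against 18.1% of all probe sets. The median iron response of the 5 was −0.20 in WT and −0.25 in uri. The interaction was called for 0 of the 5, with a median of −0.04, where 10.8% of all probe sets were called lower and 9.60% higher. A fall particular to uri was thus not shown for these markers. The part of these markers in the mitotic values was not tested.

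**Figure D4:**
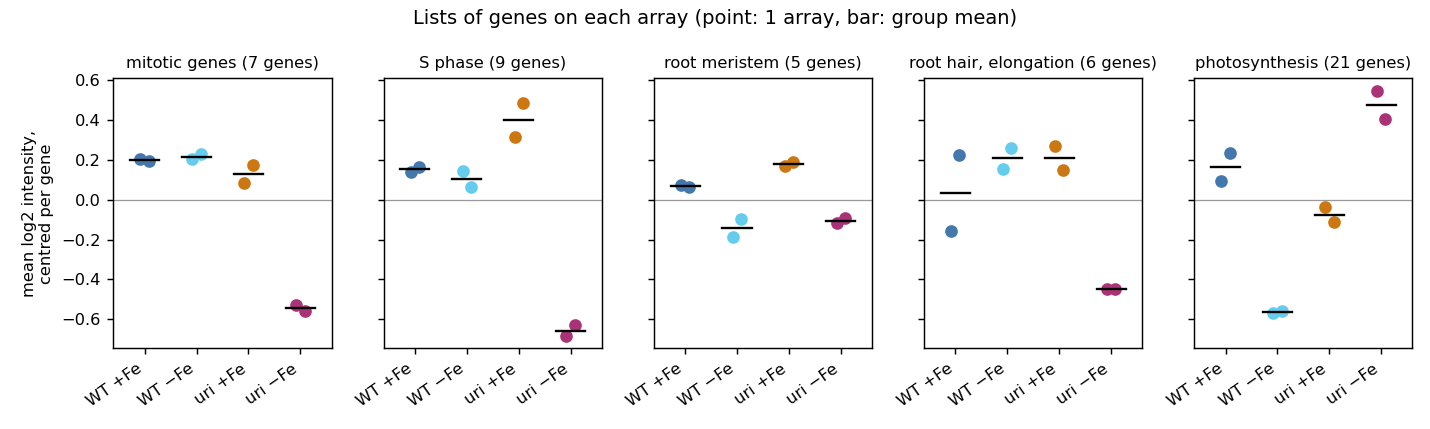
Mean log2 intensity of 5 gene lists on each array (vertical axis), after each gene was centred on its own mean over the 8 arrays, by group (horizontal axis). Points are arrays and bars group means. The mitotic genes lie at −0.53 and −0.56 on the uri −Fe arrays and between 0.08 and 0.23 on the other 6.

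The mean of the 7 genes, each centred on its own mean over the arrays, was 0.21 and 0.20 in WT +Fe, 0.20 and 0.23 in WT −Fe, 0.08 and 0.17 in uri +Fe, and −0.53 and −0.56 in uri −Fe. The 8 other genes measured alone whose profile was most like this mean had Pearson correlations from 0.989 to 0.993 over the 8 arrays. They were PRP4, a proline-rich cell wall protein, QUA1, a galacturonosyltransferase of pectin synthesis, and AT2G01210, AT3G01810, AT3G56370, AT1G47900, AT5G55180 and AT5G10770. None of the 8 belonged to a cell-cycle list. Their log2 iron responses in uri ranged from −1.14 for PRP4 to −0.42 for AT3G01810. With 8 arrays in 4 groups, such a correlation rests largely on the uri −Fe pair.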

How the data were processed

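The deposited values were linear probe-set intensities on 22810 probe sets, made by the authors with RMA, per the submitters' processing notes, and its version is not given in the sources used here. The genome build is not named, so no coordinates are given, and no sequences were used here. Annotation was joined by the annotation's own probe-set column, because 44 lines stood beside the values of another probe set. After 64 control probe sets were left out, 22746 were tested, of which 21180 were annotated to 1 gene. RefSeq symbols (TAIR10.1) named the genes most like the mean profile. Members and listed genes carry common names, and RefSeq has SYP111 for KNOLLE and CYC1BAT for CYCB1;2. From the deposited intensities log2 was taken, and limma 3.58.1 under R 4.3.3 (lmFit, eBayes) fitted 1 mean per group to 8 arrays with 5 contrasts, two-sided, leaving 4 residual degrees of freedom plus a prior of 8.32. The procedure was run on simulated data in which far fewer probe sets changed than were called in the iron response of uri. That run does not give the error rate for these data. Precision is limited by 2 arrays per group. Every member is named in every comparison. From each list at most 4 called genes with the largest change per comparison are named, with the members' paralogues. A gene with several probe sets is represented by the brightest. The members and lists were chosen with earlier results of these data known. Alternatives were 2 other scalings of the arrays, an intensity trend, a filter on dim probe sets, the second deposited table (equal within 5.0e-06), only the arrays compared, a replicate block and leaving out each array.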

Additional observations from a re-analysis of the deposited data

Results flagged for a closer look

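The iron response differed between the genotypes, by the limma interaction, for 5 mitotic genes. The difference (uri minus WT, log2) was −1.12 for CYCB1;1, −0.64 for CYCB1;3, −1.17 for CYCA1;1, −0.48 for CDKB2;1 and −0.77 for KNOLLE. The other 2 genes, CYCB2;1 and CDKB2;2, had interactions of −0.38 and −0.25 that were not called. The calls of CYCB1;3 and CDKB2;1 depended on single arrays, as given with those genes. That of CDKB2;1 also ended with all arrays kept, when they were centred on their median or when the replicate number was a block.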

How the results depend on the processing

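Of 518 values of single mitotic genes under the alternatives, 486 kept direction and side of the threshold, 28 lost a call, 1 gained one and 0 changed the sign of a call. The other 3 were values near 0, not called, that turned sign without 1 array. They were CYCB1;3 in WT (0.05 without WT −Fe replicate 1), and with iron KNOLLE (0.01 without uri +Fe replicate 1) and CYCA1;1 (−0.07 without uri +Fe replicate 2). The lost calls were those of CDKB2;2 in the iron response of uri and without iron, and the interactions of CYCB1;3 and CDKB2;1. The number of mitotic genes called with iron was 1 with an intensity trend. The number called for the interaction was 3 to 4 over the arrays left out. Cell-cycle genes called in WT numbered 4 with quantile normalization, 5 with an intensity trend, 1 with the replicate block and 0 to 4 over the arrays left out. With iron they numbered 4 without probe sets below the lower quartile, 0 in a fit to only the arrays compared and 0 to 5 over the arrays left out. For the interaction they numbered 16 to 33 over the arrays left out. The cause of these shifts was not tested. The replicate number as a block moved the adjusted p to 0.0548 for CDKB2;2 in the iron response of uri and to 0.0616 for the interaction of CDKB2;1. Same-numbered arrays deviated from their group means with correlations from −0.223 to 0.155. With a single difference between replicates in each group, these values cannot decide whether the samples share more than a number. Values of dim probe sets, such as that of CYCB1;2, are limited by signal over background.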

Other observations

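With iron, CYCD1;1 was lower in uri than in WT (log2 −0.68, limma adjusted p = 0.016), and CYCD5;1 was higher (0.67, adjusted p = 0.0233). Without iron neither differed between the genotypes by limma, at −0.12 and −0.06. The with-iron call ended for CYCD1;1 without WT +Fe replicate 2 or uri +Fe replicate 2, and for CYCD5;1 without either WT +Fe array or uri +Fe replicate 2.

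In WT, SMR5, a CDK inhibitor of stress responses, was higher with iron deficiency (0.56, limma adjusted p = 0.0309). AUR2, an Aurora kinase, was lower (−0.42, adjusted p = 0.0475). The SMR5 call ended without any 1 of the 4 WT arrays, and the AUR2 call without any 1 of those or of the 2 uri −Fe arrays.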
